A study of Homo sapiens with 12 samples.

Results

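The ABC transporter genes are the 45 protein-coding genes, of 58735 annotated genes in the count table, whose symbol is ABC followed by a subfamily letter from A to G and a number. Subfamily A had 12 members, B had 9, C had 11, D had 4, E had 1, F had 3 and G had 5. RNA sequencing of poly(A)-selected RNA gave their levels in 12 libraries of Beas-2b, a line of human bronchial epithelium that has been immortalised. Wild type cells and cells with ANT1 knocked out by CRISPR were each studied in control medium or after 2 days with bleomycin, a DNA-breaking agent, at 10 mg/ml, with 3 libraries in each of the 4 groups. ANT1, the product of SLC25A4, is the mitochondrial carrier that swaps ADP for ATP. How many knockout clones were used was not found in the labels, so genotype and clone cannot be told apart.

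ABC proteins bind and hydrolyse ATP in a conserved pair of nucleotide-binding domains, and most use it to move a substrate across a membrane. Subfamilies A and G hold many lipid exporters, B and C hold drug, peptide and conjugate pumps together with mitochondrial transporters, and D serves mainly the peroxisome. Members of subfamilies E and F have no membrane-spanning part and act on ribosomes. In airway and lung, ABC proteins are known for cholesterol efflux, surfactant lipid packing and the export of glutathione conjugates.

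The regions just upstream of 4 members are shown because these genes were among the clearest rises and falls after bleomycin, with the letters taken from RefSeq on GRCh38.p14. They run 5′ to 3′ on the strand of the gene, and only bases upstream of both the RefSeq start and the start of the deposited gene model are printed. The windows are chr9:104928238-104928405 for ABCA1, chr2:215138627-215138876 for ABCA12, chr7:48171208-48171457 for ABCA13 and chr13:95301476-95301701 for ABCC4. ABCA13 lies on the plus strand and the others on the minus strand. Capitals mark matches, on either strand, to the 7 motifs listed after the sequences.
ABCA1: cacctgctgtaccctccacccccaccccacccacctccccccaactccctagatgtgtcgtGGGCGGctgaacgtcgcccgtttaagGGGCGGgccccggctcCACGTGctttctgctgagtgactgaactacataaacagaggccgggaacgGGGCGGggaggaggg
ABCA12: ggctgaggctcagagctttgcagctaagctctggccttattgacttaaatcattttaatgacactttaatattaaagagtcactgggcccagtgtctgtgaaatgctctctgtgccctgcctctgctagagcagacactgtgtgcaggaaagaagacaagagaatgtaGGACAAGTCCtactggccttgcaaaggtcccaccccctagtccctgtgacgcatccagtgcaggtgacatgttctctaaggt
ABCA13: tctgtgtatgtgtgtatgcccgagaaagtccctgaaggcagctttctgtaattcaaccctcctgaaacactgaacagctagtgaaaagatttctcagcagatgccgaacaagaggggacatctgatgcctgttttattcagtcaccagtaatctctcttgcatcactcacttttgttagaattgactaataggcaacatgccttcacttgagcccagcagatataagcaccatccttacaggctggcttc
ABCC4: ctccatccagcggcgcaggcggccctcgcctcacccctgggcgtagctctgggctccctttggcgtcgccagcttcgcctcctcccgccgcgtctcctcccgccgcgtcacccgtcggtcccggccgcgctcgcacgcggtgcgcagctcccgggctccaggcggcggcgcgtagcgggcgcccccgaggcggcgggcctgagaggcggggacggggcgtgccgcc

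The 7 motifs were searched on both strands of the 250 bases before each start in RefSeq, and overlaps between motifs were allowed. An entry existed for 35 of the 45 members. ABCG1 is among those with no entry. The GC box GGGCGG occurred in 17 of the 35 member windows and in 42.6% of 35116 windows of all genes. The CCAAT box occurred in 6 members and 32.0% of all windows, TATAAA in 6 and 10.7%, the E-box CACGTG in 6 and 6.34%, and the AP-1 site TGANTCA in 1 and 6.57%. The p53 half-site occurred in 6 members and 5.57% of all windows.

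The window of ABCA1 held 3 GC boxes and 1 E-box in the printed part, and its remaining 82 bases lie inside the deposited gene model. A TATAAA match at bases -31 to -26 from the start and a p53 half-site at -23 to -14 lie in that part. The DR4 element, the type of site that liver X receptors bind, was searched as a pair of half-sites AGGTCA that are 4 bases apart, with up to 2 mismatches. It occurred in 2.03% of all windows and in 3 members, ABCA1, ABCC6 and ABCD2. In ABCA1 it lies at -69 to -54 and reads, on the opposite strand, as in the next line, where capitals mark the whole element.
ABCA1 DR4 element: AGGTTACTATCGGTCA

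ABCA12 held a p53 half-site at -82 to -73. The windows of ABCA13 and ABCC4 held none of the 7, which says only that these letters are not in those windows. The GC content of the 250 bases was 61.6% for ABCA1, 48.8% for ABCA12, 44.8% for ABCA13 and 80.4% for ABCC4, against a median of 58.0% over all windows. A match describes letters, and binding was not measured.

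Total counts ran from 15.75 to 21.92 megacounts per library, so 3 counts, the limit that a count of 0 allows, stand for 0.136 to 0.190 CPM (counts per megacount of the scaled library). SLC25A4 measured 4.09 to 6.96 CPM in the 6 knockout libraries and 16.1 to 27.5 CPM in the 6 wild type libraries. Knockout control replicate 2 stood apart from its group. Its mitochondrially encoded genes took 0.364% of counts, against 3.86 to 5.13% in the other 11 libraries, and its chi-square per gene was 105 and 114 against its fellow replicates, where all other replicate pairs were at 16.8 or less. Epithelial markers summed to between 1480 and 1880 CPM in all libraries, led by the keratins KRT7 and KRT8, while EPCAM and CDH1 were at group means of 0.936 to 2.44 CPM. Alveolar type II markers summed to 0.587 CPM or less. Of the 8 leukocyte markers, which summed to 19.6 to 40.8 CPM in control and 7.54 to 11.6 CPM after bleomycin, PTPRC, LYZ and CD3E stayed at group means of 0.287 CPM or less. CD14 fell by 3.29 and 3.19 on the log2 scale in wild type and knockout cells, and ITGAM rose, from 0 to 5.42 and from 0.0364 to 4.78 CPM. Fibroblast markers, led by COL1A1 and THY1 with LUM at 0, summed to 924 to 1560 CPM in wild type control and 768 to 801 CPM after bleomycin. In knockout cells they summed to 940 to 3660 CPM, highest in control replicate 2, and to 692 to 915 CPM. Secretory markers summed to 0.378 CPM or less in control and 2.99 to 5.15 CPM after bleomycin, as MUC5AC rose to 3.93 and 3.95 CPM. Ciliated markers summed to 3.27 to 5.83 CPM and then 6.05 to 7.47 CPM, and FOXJ1 rose from 0 to 0.854 and 0.751 CPM. Endothelial markers summed to 2.34 to 4.22 CPM. The part of these markers in the results was not tested.

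Of the 45 members, 30 passed the filter on low counts: 8 of 12 in subfamily A, 5 of 9 in B, 7 of 11 in C, 3 of 4 in D, 1 of 1 in E, 3 of 3 in F and 3 of 5 in G. Levels of different genes are compared here as FPKM, which divides by gene length. In wild type control cells the highest was ABCF1, a factor of translation initiation, at 38.1 ± 2.10 FPKM (SD, n = 3). It was followed by ABCC1, the multidrug resistance protein that exports glutathione conjugates, at 25.2 ± 4.44 FPKM, and by ABCE1, which splits ribosomes after termination, at 19.3 ± 2.22 FPKM. ABCD3, a peroxisomal fatty acid importer, came next at 13.3 ± 1.25 FPKM. Every other member had a lower level than ABCF1 in every group mean. After bleomycin the first 3 places were unchanged, and ABCA1, which was 20th in wild type control at 1.38 ± 0.266 FPKM, was 4th at 17.2 ± 1.53 FPKM in wild type and 16.4 ± 1.13 FPKM in knockout cells.

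**Figure D1:**
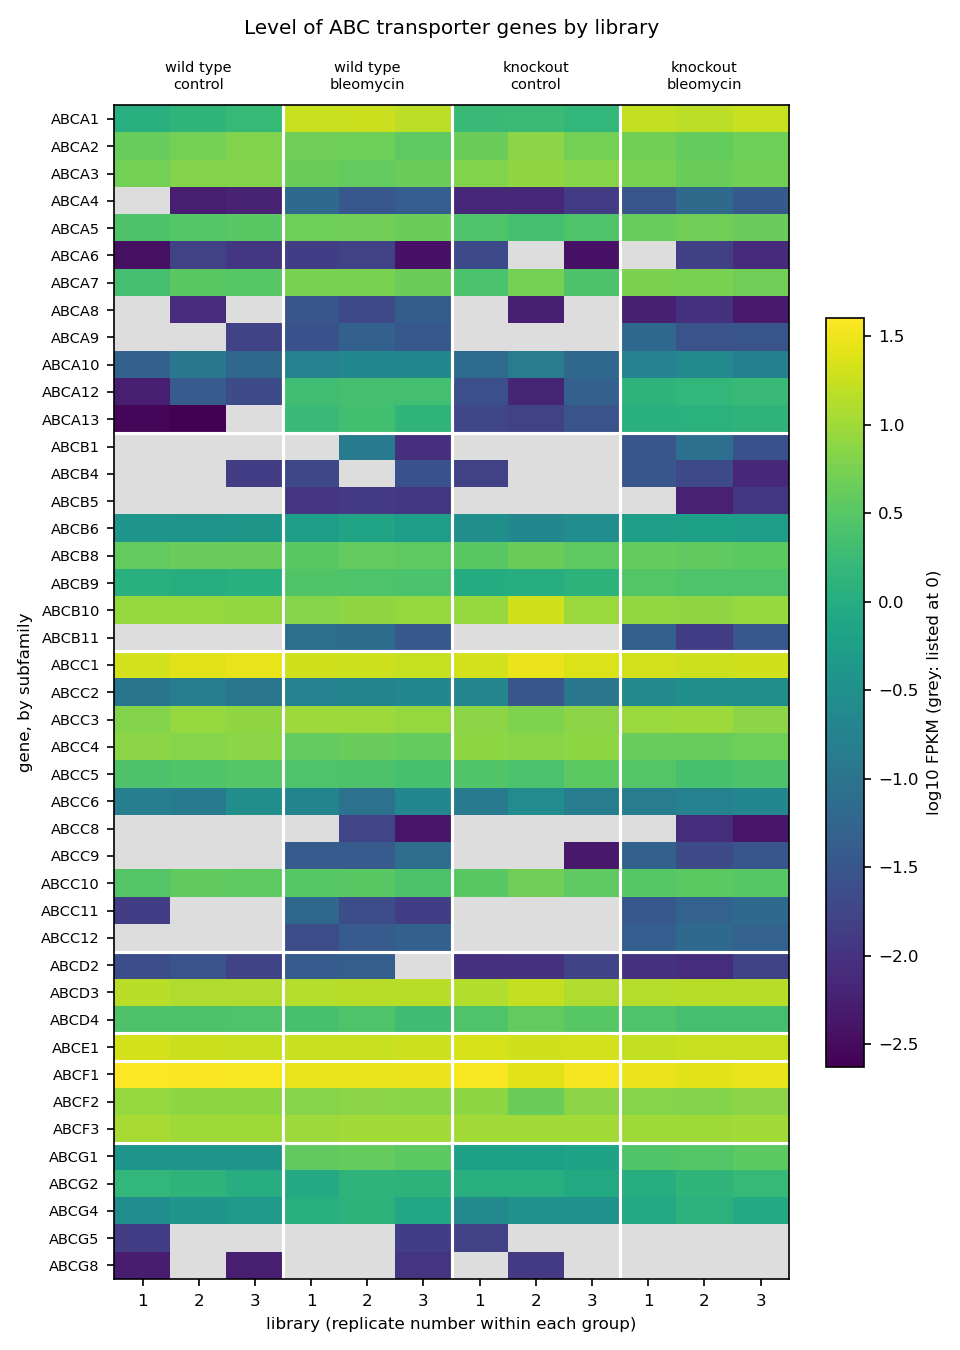
Deposited level of ABC transporter genes (rows, grouped by subfamily) in the 12 libraries (columns, by group and replicate), as log10 FPKM. Grey cells are listed at 0. ABCA1, ABCA12, ABCA13 and ABCG1 change colour between control and bleomycin, and ABCF1 is brightest in all libraries but knockout control replicate 2.

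The FPKM of all 45 members summed to 190.3 ± 2.43 in wild type control and 197.4 ± 4.39 after bleomycin, and to 190.9 ± 8.17 and 196.4 ± 3.61 in the knockout groups. Its makeup shifted between subfamilies, which is given as a description with no test. Subfamily A summed to 15.6, 20.1 and 21.2 FPKM in the wild type control libraries and to 41.6, 42.3 and 36.6 FPKM after bleomycin. In knockout cells it summed to 18.03, 25.0 and 19.2 FPKM in control and to 40.1, 37.3 and 39.7 FPKM after bleomycin. Every bleomycin library was above every control library in subfamily A, and the same held for subfamily G, whose means were 2.03 and 5.97 FPKM in wild type and 1.98 and 5.48 FPKM in knockout cells. Subfamily C went from 46.9 ± 5.72 to 38.2 ± 2.57 FPKM in wild type cells and from 46.6 ± 4.03 to 39.8 ± 1.26 FPKM in knockout cells. Subfamily F went from 56.6 ± 3.32 to 46.6 ± 1.48 FPKM in wild type cells, and in knockout cells from 49.9 ± 7.85 to 45.4 ± 1.65 FPKM. Single genes held much of the wild type shifts in A, G and F. ABCA1 went from 1.38 to 17.2 FPKM, ABCG1 from 0.387 to 3.73 FPKM and ABCF1 from 38.1 to 29.3 FPKM. Within subfamily A, ABCA2 and ABCA3 went down, from 5.30 to 4.39 and from 6.17 to 4.29 FPKM.

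**Figure D2:**
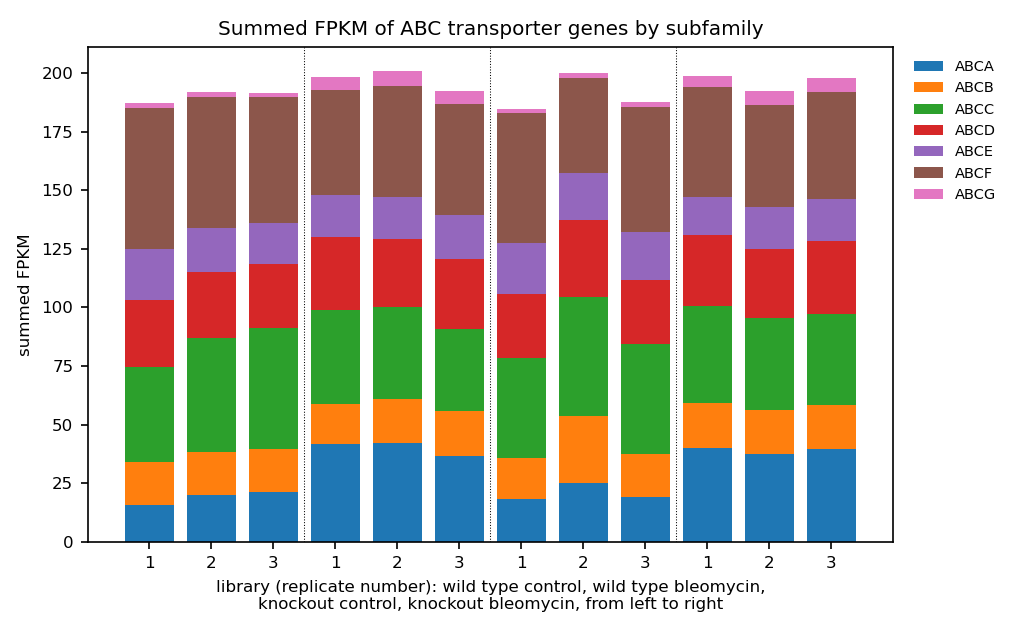
Summed FPKM of the ABC transporter genes in each of the 12 libraries, stacked by subfamily. The total stays between 184.8 and 201.2, while the share of subfamily A is larger in the 6 bleomycin libraries than in the 6 control libraries.

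In wild type cells 10 of the 30 tested members rose and 4 fell after bleomycin, by edgeR's quasi-likelihood test at a Benjamini-Hochberg adjusted p under 0.05. The background was 23.9% of 16702 tested genes higher and 19.6% lower, against 33.3% and 13.3% of the members. In knockout cells 11 members rose and 4 fell, or 36.7% and 13.3%, where the background was 22.5% higher and 20.7% lower. ABCA12 and ABCA13, among the rises in both, passed the filter only through bleomycin libraries, so only a rise could be called. How many genes of the background did the same was not counted. The median log2 fold change of the tested members was -0.04 in wild type and 0.06 in knockout cells, and that of all tested genes was 0.02 and 0.00402. All 10 that rose in wild type cells were among the 11 in knockout cells, and 2 genes, ABCC4 and ABCA3, fell in both. The matching overlap over all tested genes was not counted, so this overlap does not set the members apart. The 2 responses share no library, but their calls come from the same fit and are not independent. In bulk RNA, a change in the number of cells that express a gene and a change in RNA per cell cannot be told apart. Without knockout control replicate 2, 20 members were called in wild type cells in place of 14, and 19 in place of 15 in knockout cells, of 33 tested. That fit called 56.6% and 48.4% of 17204 genes, against 43.5% and 43.2% with all libraries. The additions in wild type cells included ABCA4, ABCB11, ABCC3 and ABCC9 among those higher and ABCB8 among those lower. In knockout cells ABCA4, ABCB11 and ABCC9 were among the additional higher genes, while among those lower ABCF1 took the place of ABCD4. ABCA4, ABCB11 and ABCC9 were not tested with all libraries, and the filter of the smaller fit asked for fewer libraries. They passed it only through bleomycin libraries, so only a rise after bleomycin could be called for them. With only the 6 libraries of each genotype, 17 members were called in wild type cells, where 56.0% of genes were, and 10 in knockout cells, where 31.9% were.

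**Figure D3:**
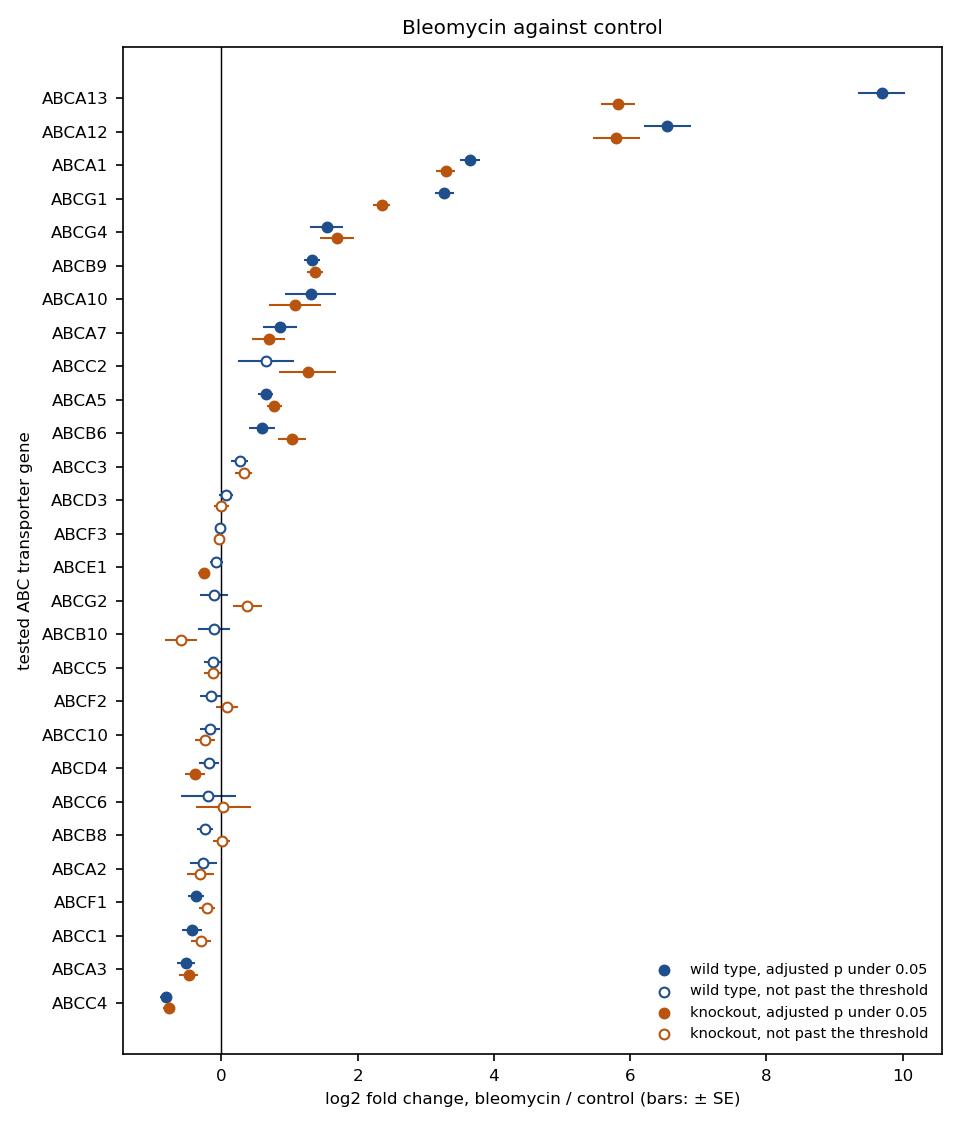
Log2 fold change of bleomycin against control for tested members, in wild type (blue) and knockout cells (orange), with bars of ± SE. Filled points passed an adjusted p of 0.05. ABCA13, ABCA12, ABCA1 and ABCG1 lie above 2 in both genotypes, and most others lie within 1 of no change. The point of ABCA13 in wild type cells rests on 2 control counts.

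Among the lipid exporters of subfamilies A and G, the cholesterol transporters ABCA1 and ABCG1 rose together. ABCA1, which loads cholesterol and phospholipid onto lipid-poor apolipoprotein, lies at chr9:104781002-104928237. It measured 12.6, 15.7 and 18.7 CPM in wild type control and 204, 211 and 177 CPM after bleomycin, a log2 fold change of 3.65 (SE 0.144, adjusted p = 5.41e-10). In knockout cells it measured 19.7, 20.7 and 17.03 CPM in control and 189, 174 and 199 CPM after bleomycin, a log2 fold change of 3.29 (SE 0.142, adjusted p = 1.92e-09). The 6 bleomycin libraries lay at 174 CPM or above and the 6 control libraries at 20.7 CPM or below.

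ABCG1, which moves cholesterol toward high-density lipoprotein, lies at chr21:42199689-42297244. In wild type cells it went from 2.44, 2.31 and 2.38 CPM to 23.0, 25.0 and 21.1 CPM (log2 fold change 3.27, SE 0.135, adjusted p = 8.16e-10). Knockout cells went from 3.74, 3.54 and 4.09 CPM to 18.1, 18.4 and 21.6 CPM (log2 fold change 2.35, SE 0.130, adjusted p = 1.64e-08). Control and bleomycin libraries did not overlap in either genotype. ABCG4, a relative of ABCG1 that also exports sterols, rose from 1.68, 2.36 and 2.81 CPM to 6.75, 8.13 and 5.18 CPM in wild type cells (log2 fold change 1.55, SE 0.243, adjusted p = 0.000183). It also rose in knockout cells, from 1.57, 2.11 and 2.18 CPM to 5.52, 7.86 and 5.70 CPM (log2 fold change 1.70, SE 0.252, adjusted p = 0.000134). Its groups did not overlap. The remaining sterol pair, ABCG5 and ABCG8, had 3 and 6 counts over all 12 libraries and was not tested.

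The other genes of the liver X receptor and cholesterol efflux list did not move as a block. Of 14 listed genes 12 were tested, and 2 rose and 2 fell in wild type cells, against 3 and 2 in knockout cells. Over all tested genes, the background for this and the later lists, 23.9% rose and 19.6% fell in wild type cells. In knockout cells it was 22.5% and 20.7%. No list was tested as a set. LCAT, which esterifies cholesterol on lipoproteins, rose from 13.1 to 31.4 CPM in wild type cells (log2 fold change 1.25, SE 0.205, adjusted p = 0.000254) and by 1.39 on the log2 scale in knockout cells. MYLIP, a ubiquitin ligase that degrades the low-density lipoprotein receptor, rose by 0.51 and 0.42 on the log2 scale. SREBF2, the activator of cholesterol synthesis genes, fell by 0.59 on the log2 scale in both genotypes (adjusted p = 0.00129 and 0.00144). The receptor genes NR1H2 and NR1H3 did not pass the test in either genotype (adjusted p = 0.254 and 0.0631 in wild type cells).

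ABCA12 and ABCA13 were nearly silent in control medium and were plainly expressed after bleomycin. ABCA12, which carries glucosylceramide into the lamellar granules of skin, lies at chr2:214931542-215138428. It measured 0.0508, 0.363 and 0.216 CPM in wild type control and 19.1, 21.98 and 21.1 CPM after bleomycin. The knockout libraries held 0.241, 0.0621 and 0.437 CPM in control and 13.0, 13.96 and 16.5 CPM after bleomycin. Both genotypes had 13 counts in all in control medium, and 1150 (wild type) and 772 (knockout) after bleomycin. The log2 fold change was 6.55 (SE 0.343, adjusted p = 7.87e-09) in wild type and 5.80 (SE 0.349, adjusted p = 3.41e-08) in knockout cells. ABCA12 passed the filter only through bleomycin libraries, so only a rise could be called. The control libraries stayed at 0.437 CPM or below and the bleomycin libraries at 13.0 CPM or above. A pair of antisense genes overlaps ABCA12 and stayed at group means of 0.53 CPM or less.

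ABCA13, the longest member by gene model, lies at chr7:48171458-48647496. It measured 0.0508, 0.0453 and 0 CPM in wild type control and 32.0, 40.8 and 26.4 CPM after bleomycin. These are 2 and 1827 counts, a ratio of 990 with a 95% interval of 274 to 8180 that covers counting error only (edgeR adjusted p = 2.03e-10). The knockout libraries held 0.362, 0.311 and 0.546 CPM in control and 22.3, 23.2 and 25.4 CPM after bleomycin, or 21 and 1256 counts. That ratio was 57.5 (37.5 to 93.2), with a log2 fold change of 5.82 (SE 0.251, adjusted p = 1.92e-09). Control and bleomycin libraries were far apart in both genotypes. As with ABCA12, the filter was passed only through bleomycin libraries, and only a rise could be called.

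The list of skin lipid barrier genes that work with ABCA12 held 13 genes, of which 7 were tested. In wild type cells 4 rose and 2 fell, and in knockout cells 5 rose and 2 fell. The background was 23.9% higher and 19.6% lower in wild type and 22.5% and 20.7% in knockout cells. The median log2 fold change of the 7 genes was 1.19 and 0.658. The epidermal lipoxygenases ALOX12B and ALOXE3, which act on barrier ceramides, rose by 4.67 and 3.75 on the log2 scale in wild type cells (adjusted p = 9e-05 and 5.11e-07). FLG, filaggrin, rose from 33.7 to 121 CPM in wild type cells, a log2 fold change of 1.84 (SE 0.253, adjusted p = 7.83e-05), and by 1.51 in knockout cells. ELOVL4, which lengthens very long fatty acids, rose by 1.19 and 0.66. UGCG, the enzyme that makes glucosylceramide, was 1 of the 2 that fell. It went from 622 to 345 CPM in wild type cells (log2 fold change -0.85, SE 0.106, adjusted p = 2.63e-05) and fell by 0.79 on the log2 scale in knockout cells.

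ABCA5, ABCA10, ABCA6, ABCA9 and ABCA8 stand in a row on the minus strand at chr17:68867292-69327244. ABCA5, a transporter of lysosomes and late endosomes, rose from 34.6, 40.8 and 43.7 CPM to 61.1, 66.0 and 59.8 CPM in wild type cells (log2 fold change 0.65, SE 0.112, adjusted p = 0.000381). The knockout rise was from 36.9, 30.3 and 36.4 CPM to 56.9, 64.1 and 56.8 CPM (log2 fold change 0.78, SE 0.112, adjusted p = 0.000108), with no overlap of groups in either genotype. ABCA10 rose from a mean of 0.663 to 1.68 CPM in wild type cells (log2 fold change 1.31, SE 0.377, adjusted p = 0.0126) and from 0.777 to 1.63 CPM in knockout cells (1.08, SE 0.383, adjusted p = 0.0362). The models of ABCA5 and ABCA10 overlap by 536 bases on the same strand, so a share of reads cannot be assigned between them. The ABCA10 call in wild type cells ended without control replicate 1 or 3 (adjusted p = 0.0537 and 0.0505). In knockout cells it ended without control replicate 1 or 3 or bleomycin replicate 1 or 2 (adjusted p = 0.0998, 0.119, 0.0612 and 0.132), and with the 6 knockout libraries alone (0.0609). The 3 remaining neighbours had 27 to 41 counts each over the 12 libraries and were not tested.

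ABCA7, a phospholipid transporter tied to phagocytosis, rose from 19.3, 28.4 and 26.6 CPM to 48.7, 48.0 and 38.4 CPM in wild type cells (log2 fold change 0.86, SE 0.244, adjusted p = 0.0121). No control library reached the bleomycin range there, but the call ended without wild type control replicate 1 (adjusted p = 0.0538). The knockout values went from 21.1, 43.4 and 21.9 CPM to 49.8, 48.4 and 41.4 CPM (log2 fold change 0.69, SE 0.244, adjusted p = 0.0357). There the high control value was that of replicate 2, the library that stood apart, and it overlapped the bleomycin values. That call ended without control replicate 1 or 3 (adjusted p = 0.112 and 0.116) or bleomycin replicate 1 or 2 (0.0925 and 0.0890), and with the 6 knockout libraries alone (0.0964).

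ABCA3, the lipid pump of surfactant lamellar bodies in alveolar type II cells, fell. It measured 40.8, 52.6 and 51.4 CPM in wild type control and 35.9, 30.5 and 35.1 CPM after bleomycin (log2 fold change -0.51, SE 0.133, adjusted p = 0.00673). The knockout libraries were at 49.8, 63.0 and 54.7 CPM in control and 45.3, 35.3 and 39.6 CPM after bleomycin (log2 fold change -0.48, SE 0.133, adjusted p = 0.0105). Control and bleomycin values were apart in each genotype, but the knockout call ended without bleomycin replicate 2 (adjusted p = 0.0528). Of 10 surfactant partners only 3 were tested. LAMP3, a lamellar body membrane protein, rose by 1.35 and 2.12 on the log2 scale in wild type and knockout cells, and LPCAT1, which makes surfactant phosphatidylcholine, fell by 0.76 and 1.02. The surfactant protein genes SFTPA1, SFTPA2, SFTPB, SFTPC and SFTPD were at group means of 0.159 CPM or less. ABCA2, a lysosomal lipid transporter, measured 61.2 and 51.0 CPM in wild type cells and did not pass (adjusted p = 0.312).

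**Figure D4:**
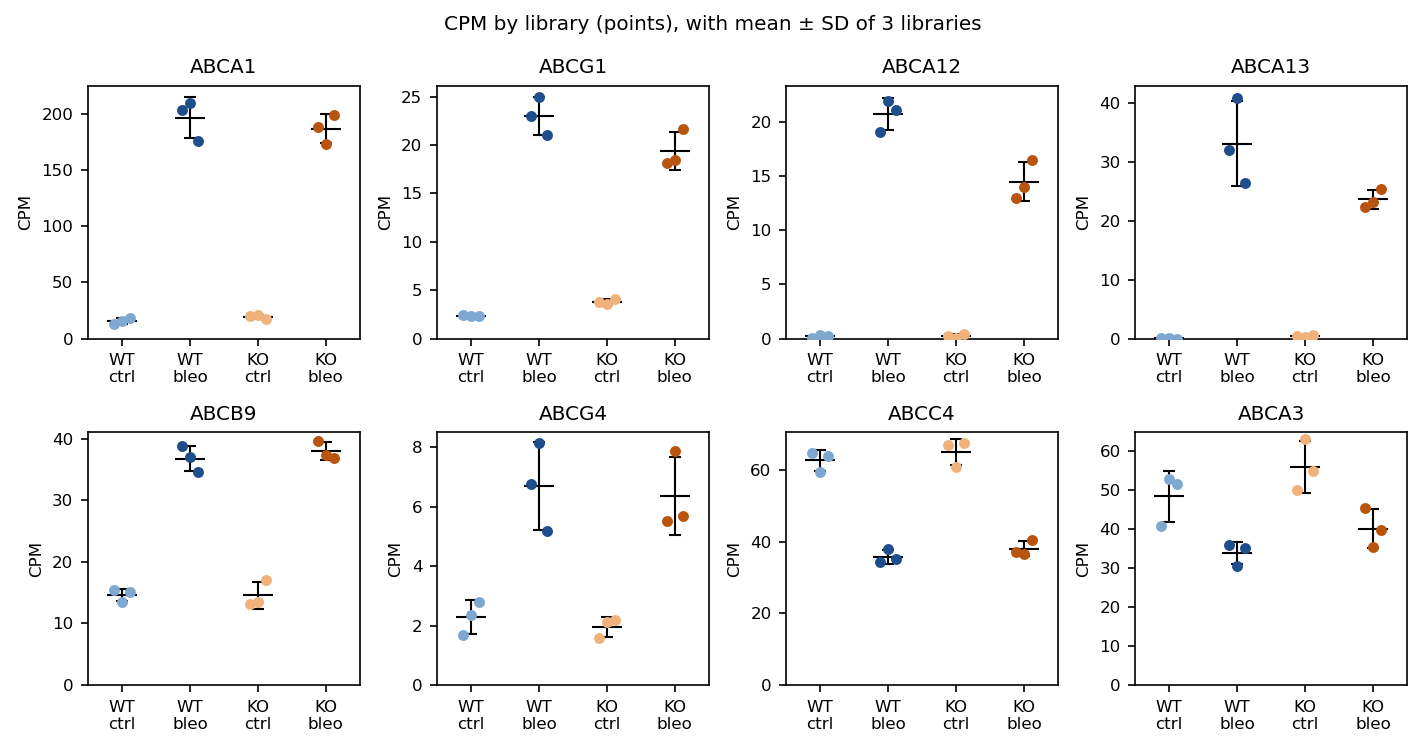
CPM of 8 members in every library (points) with the mean ± SD of 3 libraries (black), by group, on linear axes that start at 0. ABCA1, ABCG1, ABCA12, ABCA13, ABCB9 and ABCG4 are higher and ABCC4 and ABCA3 lower in the bleomycin libraries of both genotypes, with no overlap within a genotype.

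In subfamily B, ABCB9 changed most among the tested genes. ABCB9, a lysosomal peptide importer, lies at chr12:122920951-122981649. It rose from 15.4, 13.5 and 15.1 CPM to 38.8, 37.0 and 34.6 CPM in wild type cells (log2 fold change 1.33, SE 0.115, adjusted p = 8.87e-07). The rise in knockout cells was from 13.2, 13.5 and 17.1 CPM to 39.7, 37.4 and 36.9 CPM (log2 fold change 1.38, SE 0.116, adjusted p = 8.48e-07). All 6 bleomycin libraries lay above all 6 control libraries. The genes OGFOD2 and ARL6IP4 overlap it on the opposite strand and measured 1.8 CPM or less in every group mean. TAP1, a peptide transporter of antigen presentation that belongs to the same superfamily but is not named by the ABC pattern, rose from 112 to 202 CPM in wild type cells (log2 fold change 0.86, SE 0.0995, adjusted p = 1.33e-05) and by 0.58 in knockout cells. Its partner TAP2 did not pass (adjusted p = 0.0653 and 0.136), and CFTR had 44 counts over 12 libraries and was not tested.

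Mitochondrial and haem-linked members included ABCB6, ABCB8 and ABCB10. ABCB6, a porphyrin transporter, rose from 2.08, 1.95 and 2.16 CPM to 2.84, 3.66 and 2.88 CPM in wild type cells (log2 fold change 0.60, SE 0.191, adjusted p = 0.0223), with no overlap. That call ended without control replicate 2 or bleomycin replicate 2 (adjusted p = 0.0757 and 0.103), and with no filter on low counts (0.162). In knockout cells ABCB6 rose from 1.57, 1.18 and 1.47 CPM to 2.92, 3.03 and 2.77 CPM (log2 fold change 1.04, SE 0.204, adjusted p = 0.00117). A second protein-coding gene model covers nearly all of ABCB6 on the same strand and itself had 76 counts over 12 libraries, so the ABCB6 level is uncertain.

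ABCB8, an inner-membrane transporter linked to iron export, measured 39.3 and 33.4 CPM in wild type cells (adjusted p = 0.131) and 35.5 and 35.6 CPM in knockout cells. Without knockout control replicate 2 it passed in wild type cells, at a log2 fold change of -0.24 (adjusted p = 0.0182), as it did with the 6 wild type libraries alone (-0.23, adjusted p = 0.0350). ABCB10, a partner of mitochondrial haem synthesis, measured 36.9, 37.3 and 35.7 CPM in wild type control and 29.8, 34.8 and 37.1 CPM after bleomycin (adjusted p = 0.736). Knockout libraries of ABCB10 were at 38.3, 84.3 and 40.2 CPM in control and 35.6, 34.8 and 37.7 CPM after bleomycin (log2 fold change -0.59, SE 0.236, adjusted p = 0.0608). The 84.3 CPM was that of the library that stood apart. The ABCB10 difference passed without knockout control replicate 1 (adjusted p = 0.0123) or 3 (0.0192), fits that keep that library. With all libraries it passed under DESeq2 (-0.60, adjusted p = 0.0366) and in edgeR with no filter on low counts (adjusted p = 0.000171).

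Of the 13 tested iron-sulfur and haem partners, 2 rose and 3 fell in wild type cells, and 2 rose and 4 fell in knockout cells. The background was 23.9% higher and 19.6% lower in wild type and 22.5% and 20.7% in knockout cells. ISCU, the scaffold on which iron-sulfur clusters form, rose from 35.6 to 125 CPM in wild type cells (log2 fold change 1.81, SE 0.0807, adjusted p = 1.66e-09) and by 1.64 in knockout cells. ALAS1, the first enzyme of haem synthesis, rose by 0.50 and 0.47 on the log2 scale, while GLRX5, a cluster carrier, fell by 0.75 and 0.64.

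The drug and conjugate exporters of subfamily C were led by one clear fall. ABCC4, which exports cyclic nucleotides and prostaglandins, lies at chr13:95019829-95301475. It measured 64.8, 59.5 and 63.9 CPM in wild type control and 34.3, 38.0 and 35.3 CPM after bleomycin (log2 fold change -0.81, SE 0.0882, adjusted p = 7.74e-06). The fall in knockout cells was from 66.9, 60.9 and 67.5 CPM to 37.3, 36.5 and 40.6 CPM (log2 fold change -0.77, SE 0.0883, adjusted p = 1.46e-05). All control libraries lay at 59.5 CPM or above and all bleomycin libraries at 40.6 CPM or below.

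ABCC1 measured 154, 201 and 220 CPM in wild type control and 153, 145 and 129 CPM after bleomycin (log2 fold change -0.43, SE 0.145, adjusted p = 0.0286). The groups did not overlap, but control replicate 1 and bleomycin replicate 1 lay side by side. The call ended without control replicate 2 or 3 (adjusted p = 0.0831 and 0.124) or bleomycin replicate 2 or 3 (0.0657 and 0.104). In knockout cells ABCC1 did not pass (log2 fold change -0.30, SE 0.145, adjusted p = 0.114), and it passed without control replicate 1 (-0.42, adjusted p = 0.0331) and with no filter on low counts (adjusted p = 0.0448). ABCC2, an apical exporter of glucuronides, rose in knockout cells from 1.57, 0.249 and 0.873 CPM to 1.84, 2.39 and 2.28 CPM (log2 fold change 1.27, SE 0.413, adjusted p = 0.0247). That call ended without control replicate 3 (adjusted p = 0.0576) or bleomycin replicate 2 or 3 (0.0735 and 0.0632), and with the 6 knockout libraries alone (0.0957). The lowest ABCC2 control value, 0.249 CPM or 4 counts, was that of knockout control replicate 2, the library that stood apart. In wild type cells ABCC2 had a log2 fold change of 0.65 (SE 0.411, adjusted p = 0.224).

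ABCC3, a basolateral exporter of bile acids and glucuronides, measured 74.9 and 90.2 CPM in wild type cells and 67.9 and 85.2 CPM in knockout cells, with adjusted p of 0.0997 and 0.0502. ABCC5, ABCC6 and ABCC10 did not pass in either genotype, with log2 fold changes from -0.24 to 0.03. ABCC6 has pseudogene copies that can take its reads. Glutathione supply and regulator genes, 14 tested, showed 4 higher and 4 lower in wild type cells and 3 and 3 in knockout cells. The background was 23.9% higher and 19.6% lower in wild type and 22.5% and 20.7% in knockout cells. GGT1, which cleaves extracellular glutathione, rose from 0.413 to 8.59 CPM in wild type cells (log2 fold change 4.35, SE 0.274, adjusted p = 4.17e-08). Its control mean in knockout cells was 0.408 CPM. At these control levels GGT1 could pass the filter on low counts only with its bleomycin libraries, so only a rise could be called. The same held for NR1I2, also among the rises of this list, which was at 0 CPM in both control groups. GSS, glutathione synthetase, rose from 80.8 to 162 CPM (log2 fold change 1.00, SE 0.0859, adjusted p = 7.83e-07), and GSR, glutathione reductase, fell by 0.42. NFE2L2, the regulator of many of these genes, did not pass (adjusted p = 0.0554).

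ABCB1, the drug pump P-glycoprotein, had 0 counts in the 6 control libraries and 15 counts after bleomycin in each genotype. Against a limit of 3 counts over a group, the ratio was 5.42 in wild type and 4.81 in knockout cells. Each ratio takes the 15 counts as exact, so it is not a lower bound. In wild type cells bleomycin replicate 1 had none and replicate 2 stood at 0.802 CPM, while the knockout libraries were at 0.190, 0.478 and 0.163 CPM. ABCG2, the breast cancer resistance protein, measured 7.52, 6.67 and 5.13 CPM in wild type control and 4.69, 6.81 and 6.46 CPM after bleomycin (log2 fold change -0.11, SE 0.208, adjusted p = 0.709). ABCG2 in knockout cells measured 5.67, 5.53 and 4.53 CPM and then 5.26, 7.06 and 8.09 CPM (log2 fold change 0.38, SE 0.211, adjusted p = 0.164). The ABCG2 libraries overlapped in both genotypes.

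The 15 untested members had between 3 and 56 counts over all libraries. Of them 11 had more counts after bleomycin than in control in both genotypes, and 0 had fewer in both. The matching share over all other genes below the filter was not computed, so these counts do not set the members apart. ABCC9, the regulatory subunit of a potassium channel, went from 0 to 34 counts in wild type cells and from 1 to 21 in knockout cells (ratio 20.2, 3.25 to 835). Against a limit of 3 control counts the wild type ratio was 12.3. A ratio on that limit takes the bleomycin counts as exact and is not a lower bound. ABCB11, the bile salt pump of liver, went from 0 to 27 counts (ratio 9.75 on that limit) in wild type and from 0 to 13 (4.17) in knockout cells. ABCC12 went from 0 to 18 counts (ratio 6.50 on that limit) and from 0 to 25 (8.01). ABCA4, the retinoid flippase of photoreceptors, went from 2 to 23 counts (ratio 12.5, 3.08 to 109) and from 4 to 21 (5.05, 1.70 to 20.2). All 4 stayed under 1 CPM in every library.

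The peroxisomal member ABCD3 did not pass in either genotype, with log2 fold changes of 0.07 (SE 0.105, adjusted p = 0.611) in wild type and 0.00261 (SE 0.105, adjusted p = 0.986) in knockout cells. ABCD4, which moves vitamin B12 out of lysosomes, fell in knockout cells from 23.8, 33.7 and 27.8 CPM to 24.5, 20.4 and 20.1 CPM (log2 fold change -0.39, SE 0.148, adjusted p = 0.0477). The groups overlapped. That call ended in 8 of the 12 fits that left out 1 library, and without control replicate 2, whose 33.7 CPM was the highest, the log2 fold change was -0.26 (adjusted p = 0.0906). It also ended without control replicate 3 (0.0699), without bleomycin replicate 2 or 3 (0.138 and 0.153), without wild type control replicate 1, 2 or 3 (0.0636, 0.0619 and 0.0606) and without wild type bleomycin replicate 1 (0.0629). With all 12 libraries it ended under limma on log2(FPKM + 1) (0.0572) and with the replicate block (0.0601), and it ended with the 6 knockout libraries alone (0.114). Of 13 peroxisome partners, 1 rose and 4 fell in wild type cells, and 1 rose and 3 fell in knockout cells. The background was 23.9% higher and 19.6% lower in wild type and 22.5% and 20.7% in knockout cells. PEX5, the peroxisomal import receptor, fell by 0.59 and 0.79 on the log2 scale in wild type and knockout cells.

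Of the ribosome-acting members, ABCF1 fell in wild type cells from 182, 173 and 164 CPM to 129, 136 and 136 CPM (log2 fold change -0.37, SE 0.118, adjusted p = 0.0210). The groups did not overlap, but the call ended without control replicate 1 or 2 (adjusted p = 0.0667 and 0.0505) or bleomycin replicate 1 or 2 (0.0720 and 0.0523). ABCF1 in knockout cells went from 168, 118 and 162 CPM to 138, 123 and 128 CPM (log2 fold change -0.20, SE 0.119, adjusted p = 0.183), where the low control value was again replicate 2. ABCE1 fell in knockout cells from 138, 126 and 128 CPM to 103, 114 and 112 CPM (log2 fold change -0.26, SE 0.0919, adjusted p = 0.0384). The groups did not overlap. That call ended in 8 of the 12 fits that left out 1 library. Its adjusted p was then 0.116 and 0.0600 without control replicate 1 or 3, and 0.135, 0.0595 and 0.0803 without bleomycin replicate 1, 2 or 3. It was 0.0514 without wild type control replicate 2, and 0.0555 and 0.0644 without wild type bleomycin replicate 1 or 2. The call also ended with no filter on low counts (0.112), with the replicate block (0.0634) and with the 6 knockout libraries alone (0.0880).

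In wild type cells ABCE1 had a log2 fold change of -0.07 (adjusted p = 0.561). OTUD4 overlaps ABCE1 on the opposite strand and also fell in knockout cells (log2 fold change -0.52, adjusted p = 0.00237). ABCF2 and ABCF3, relatives of ABCF1, did not pass in either genotype. ABCF3 measured between 51.8 and 58.0 CPM in all 12 libraries. Of 12 partners in ribosome recycling and initiation, 3 rose and 1 fell in wild type cells and 2 rose and 3 fell in knockout cells. The background was 23.9% higher and 19.6% lower in wild type and 22.5% and 20.7% in knockout cells. PELO, which recognises stalled ribosomes, rose from 53.1 to 85.2 CPM in wild type cells (log2 fold change 0.68, SE 0.104, adjusted p = 0.000148), while its partner HBS1L fell by 0.32 (adjusted p = 0.0175).

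Knockout and wild type cells were then compared within each medium, which asks whether loss of ANT1 shifts these transporters. In control medium 0 of 30 members passed in either direction, where the background was 0.108% of genes higher and 0.0599% lower in knockout cells. At an unadjusted p under 0.05, 3 members were higher and 1 lower, beside 1084 and 578 of all 16702 tested genes. DESeq2 also called 0 members. After bleomycin 0 members passed, where the background was 0.00599% higher and 0.0419% lower. At an unadjusted p under 0.05, 0 members were higher and 2 lower, beside 547 and 556 of all 16702 tested genes. DESeq2 called 0 members. No gene of the pathway lists passed in either medium.

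In control medium ABCG1 was at 2.31 to 2.44 CPM in wild type and 3.54 to 4.09 CPM in knockout cells (log2 difference 0.68, SE 0.144, adjusted p = 0.114). ABCA13 had 2 counts in wild type and 21 in knockout control, a ratio of 12.4 (3.03 to 109, counting error only), with an adjusted p of 0.0874. Neither gene's groups overlapped. With no filter on low counts ABCA13 passed (adjusted p = 0.00183). Without knockout control replicate 2 both passed, where 0.674% of genes were called higher, ABCG1 at a log2 difference of 0.72 (adjusted p = 0.0474) and ABCA13 at 3.54 (adjusted p = 0.0446). Further unadjusted differences in control medium were ABCB10 (log2 difference 0.56, adjusted p = 0.484), which was 0.10 without replicate 2 and passed with no filter on low counts (0.53, adjusted p = 0.0165), and ABCB6, lower at -0.55 (SE 0.207, adjusted p = 0.451).

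After bleomycin ABCA12, ABCA13 and ABCG1 had lower means in knockout than in wild type cells, and none passed. ABCA12 was at 19.1 to 21.98 CPM in wild type and 13.0 to 16.5 CPM in knockout cells, a log2 difference of -0.52 (SE 0.215, adjusted p = 0.679). The ABCA12 groups did not overlap, and a fit of these 6 libraries alone gave an adjusted p of 0.0218, where 0.931% of genes were called lower. ABCA13 differed by -0.48 (SE 0.162, adjusted p = 0.519) and ABCG1 by -0.25 (SE 0.115, adjusted p = 0.759). ABCA13 did not overlap between genotypes, and ABCG1 did. The log2 differences of all 30 members after bleomycin lay between -0.52 and 0.51.

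**Figure D5:**
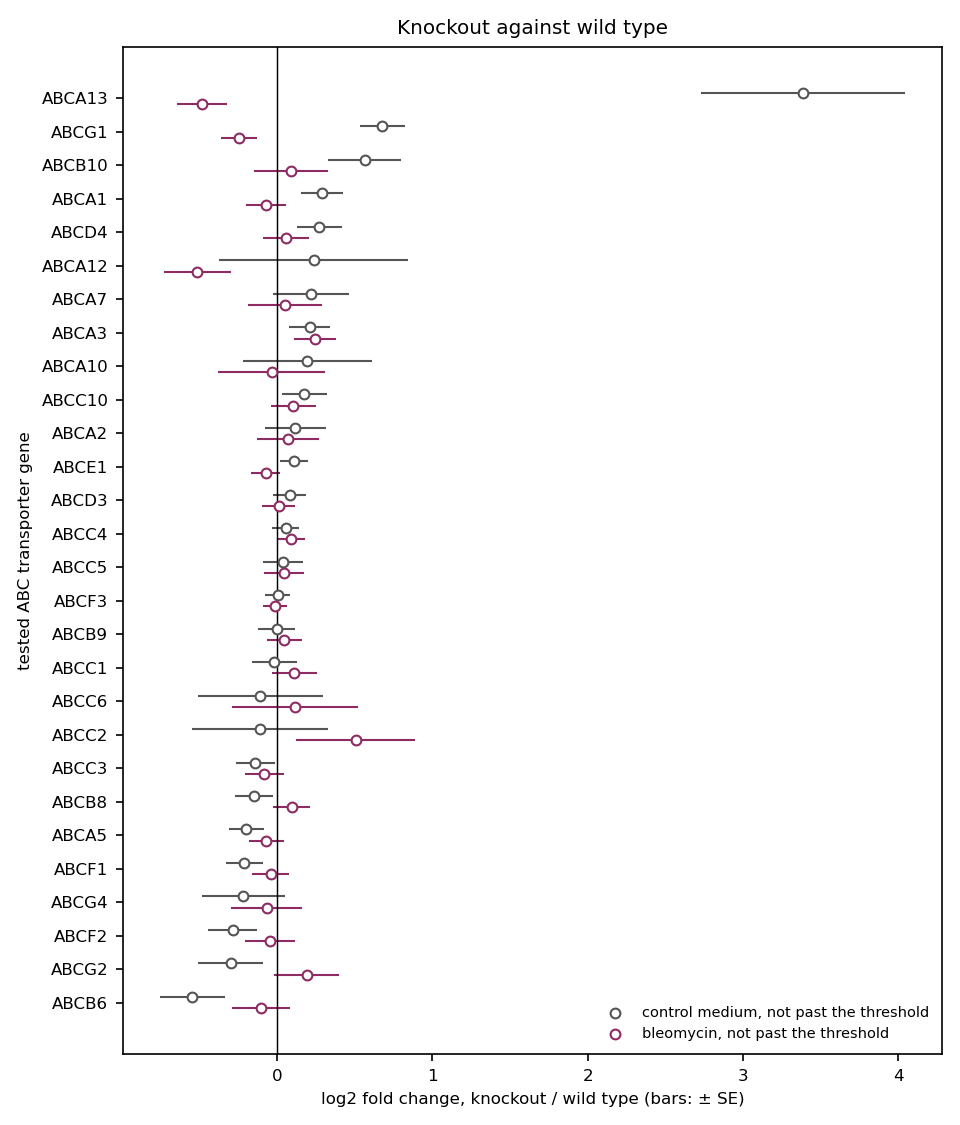
Log2 difference between knockout and wild type cells for tested members, in control medium (grey) and after bleomycin (purple), with bars of ± SE. Open points did not pass an adjusted p of 0.05. ABCA13 in control medium, at 3.39, rests on 2 counts in wild type cells.

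The difference between the responses was tested directly as an interaction, which subtracts the wild type bleomycin response from the knockout one. No gene passed, a background of 0% in each direction, and so 0 members did. DESeq2 called 4 genes, of which 0 were members. At an unadjusted p under 0.05 in edgeR there were 0 members higher and 2 lower, beside 302 and 468 of all 16702 tested genes. The 2 were ABCA13 (-3.87, SE 0.672, unadjusted p = 6.65e-05, adjusted p = 0.370, or 0.000871 with no filter on low counts) and ABCG1 (-0.92, SE 0.185, unadjusted p = 0.000246, adjusted p = 0.779). The ABCA13 value rests on 2 counts in wild type control and 21 in knockout control, so its size is poorly known. Both ABCA13 and ABCG1 had a higher control level and a lower bleomycin level in knockout than in wild type cells. ABCA1, the other cholesterol exporter, had an interaction of -0.36 (SE 0.187, adjusted p = 0.899). A threshold missed here does not show that the responses were alike.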

How the data were processed

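The authors deposited raw counts and FPKM values for 12 libraries. The submitters' processing notes name HISAT2 2.0.5 (an aligner) and featureCounts 1.5.0-p3 (a read counter). Build and strand setting are not given in the sources used here, but all 45 members have the same coordinates in GENCODE release 29 on GRCh38. The deposited FPKM equalled count divided by length and a factor per library, within 0.1% for 100% of values. Counts were tested with edgeR 4.0.16 in R 4.3.3 (filterByExpr, minimum count 10, TMM factors, quasi-likelihood test, 1 fit over all 12 libraries and 4 group means), with Benjamini-Hochberg adjustment over all 16702 genes and a threshold of 0.05. The SE is |log2 fold change| over √F. CPM uses TMM-scaled totals, and the code was tested on simulated data. The design text calls the libraries biological replicates.

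Every called member is named, with library values for up to 5 rising and 5 falling members in each bleomycin comparison (3 and 3 between genotypes). ABCB1, ABCC1, ABCG2, ABCB6, ABCB8, ABCB10, ABCA1 and ABCG1 are always named, and library values of other called members were added. A few results that this rule takes are not reported here or drawn in the figures. The members, and the pathway and marker lists, were chosen with earlier results of these data known. Alternatives were size factors, DESeq2 1.42.0, limma 3.58.1 on log2(FPKM + 1), no filter, a replicate block, 6-library fits and leaving out each library.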

Additional observations from a re-analysis of the deposited data

How the results depend on the processing

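The counts of members called were computed again under each alternative, and in none did a tested fold change that was called turn its direction. With no filter on low counts, all 45 members were tested, and bleomycin raised 16 in wild type and 18 in knockout cells (10 and 11 with the filter), where 12.2% and 10.9% of 38341 genes were higher. That background also took in genes below the filter. The wild type additions were ABCA4, ABCA8, ABCA9, ABCB1, ABCB11, ABCC9 and ABCC12, with 0 to 3 control counts each. The knockout additions were ABCC3 and, with 0 or 1 control counts each, ABCA9, ABCB1, ABCB11, ABCC9, ABCC11 and ABCC12. For these low-count genes only a rise could be called. ABCB1 in wild type cells had 14 of its 15 counts in bleomycin replicate 2. ABCB6 in wild type cells and ABCE1 in knockout cells were no longer called with no filter. In that setting knockout cells in control medium had 2 higher members (ABCA13 and ABCB10; 0.550% of genes), and the interaction had 1 lower member (ABCA13; 0.0313% of genes). With only the 6 libraries of the groups compared, 2 members fell in knockout cells in place of 4 and 8 rose in place of 11, as ABCA7, ABCA10, ABCC2, ABCD4 and ABCE1 no longer passed, where 14.3% of genes fell and 17.6% rose. The same fit of wild type cells had 11 that rose and 6 that fell, where 29.3% of genes rose and 26.7% fell. After bleomycin 1 member (ABCA12) was lower in knockout than in wild type cells in the 6-library fit, where 0.931% of genes were. The same replicate numbers did not deviate together (0 of 12 pairs of libraries correlated above 0.1, range -0.098 to 0.0926). With the replicate block 2 members fell in knockout cells in place of 4, as ABCD4 and ABCE1 no longer passed, where 18.8% of genes fell. Leaving out 1 library gave 2 to 6 falling members in wild type cells. There were 2 without control replicate 2 or bleomycin replicate 2, where 16.2% and 15.3% of genes fell. There were 6 without knockout control replicate 2, where 26.8% of genes fell. In knockout cells 1 to 5 fell, 1 without bleomycin replicate 2 (15.6% of genes) and 5 without control replicate 1 (20.7%). Knockout cells in control medium had 0 to 2 higher members, 2 without knockout control replicate 2 (0.674% of genes). Without ABCF1, the summed FPKM was 152.2 (control) and 168.2 (bleomycin) in wild type cells, and 158.0 and 168.0 in knockout cells. The causes of these shifts were not tested. Depth limits the 15 untested members and the control values of ABCA12 and ABCA13, which rest on 2 to 21 counts per group.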

Other observations

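Among 13437 protein-coding genes outside the family, the 5 whose log2 CPM followed ABCA13 most closely over the 12 libraries were COL17A1, a collagen of hemidesmosomes, RGMA, STYK1, SPRY4 and INSYN2, with Pearson's r from 0.988 to 0.993. The 12 libraries fall into control and bleomycin groups and share their scaling, so r is given as a description with no test. Of neighbouring members outside the chromosome 17 row, ABCC1 and ABCC6 lie within chr16:15949577-16223522. ABCC1 fell by 0.43 on the log2 scale in wild type cells, and ABCC6 had a log2 fold change of -0.19 (SE 0.400), a difference that was not tested. ABCB8 and ABCF2 lie within chr7:151028422-151227230, and neither passed in either genotype.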
